A study of Mus musculus with 4 samples.

Results

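Levels of 10 genes of the Hippo pathway were examined in fetal brown adipose tissue (BAT), the heat-producing fat depot, of mice: the kinase genes Stk3, Stk4, Lats1 and Lats2, the coactivator genes Yap1 and Wwtr1, and the transcription factor genes Tead1, Tead2, Tead3 and Tead4. The 10 genes were chosen by name with the differences between the groups in these same libraries known, so their fold changes are given as a description and carry no test of their own. All 10 were among the 22298 genes listed in the deposited count table and among the 12888 genes that passed the filter on low counts. RNA-seq was performed on BAT of C57BL/6 fetuses at the end of gestation, in 4 libraries, 2 for each group. The paper's methods give the mice as C57BL/6J. In the control group the dams drank sterilized tap water during pregnancy, and in the fructose group they drank 20% (w/v) fructose water. The labels named no mutation or transgene and gave all 4 libraries as male fetuses. Whether the 2 libraries of a group came from separate fetuses or litters was not given in the sources used here, so the spread between them may be technical.

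The Hippo pathway is a kinase cascade that restrains tissue growth. The kinases MST2 (gene Stk3) and MST1 (Stk4) activate the kinases LATS1 and LATS2, which phosphorylate the coactivators YAP (Yap1) and TAZ (Wwtr1) and hold them in the cytoplasm. When the cascade is off, YAP and TAZ enter the nucleus and bind the TEAD factors, which contact DNA. The control of YAP and TAZ is mainly through phosphorylation of the proteins, which RNA-seq does not measure. In the mesenchyme, YAP and TAZ are known to hold back adipocyte differentiation, and TEAD factors bind the promoters of many muscle genes.

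The 2 control libraries held 19224529 and 18542897 counts and the 2 fructose libraries 22461298 and 23645147. A level is given as CPM, counts scaled to the size of each library, after TMM normalization, on which 3 counts are worth 0.158, 0.166, 0.133 and 0.123 CPM in control 1, control 2, fructose 1 and fructose 2. The tissue label was checked with marker genes, and Ucp1, which uncouples respiration in brown adipocytes, was at 9709 and 12430 CPM in control and at 11009 and 9610 CPM in fructose. The sex label was checked with Uty, Kdm5d, Ddx3y and Eif2s3y, which lie on the Y chromosome: their summed counts were 422 and 390 in control but 0 and 0 in fructose, although all 4 libraries are labelled male. The fructose libraries are therefore the libraries labelled male and fructose throughout, and a difference between the groups cannot be told apart from a difference between RNA with and without Y-linked transcripts. The share of counts on mitochondrially encoded genes also split with the groups, at 5.89% and 6.49% in control and 10.8% and 11.2% in fructose. In bulk tissue, fewer cells of a type and less RNA per cell cannot be told apart.

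Promoter sequences from RefSeq (GRCm38.p6, 250 bases before to 50 bases after each start) were found for 7 of the 10 genes, and Stk3, Tead1 and Tead4 were not matched. They were searched on both strands for GGAATG, the core letters that TEAD factors read, and for GGGCGG, the GC box of SP and KLF factors. GGAATG was found in the promoters of 4 of the 7 genes, Yap1, Wwtr1, Lats2 and Tead3, and in 14.7% of 32851 promoters overall. Counted by promoter, since a gene can have several, 6 of the 11 promoters of the 7 genes held it. Promoters of Wwtr1 overlap and hold the same GGAATG, and those of Tead3 also overlap, so the promoters are not independent. GGGCGG was found in 10 of the 11 promoters and in 35.7% of all promoters. A match is a description of the letters and not a site of binding. The stretches shown, with GGAATG in capitals, were picked from genes of the pathway's own regulators that hold the letters its factors read. Tead3, which also holds GGAATG, is not shown, and another promoter of Lats2 holds none. For Wwtr1 and Yap1, the genes of both coactivators, the 250 bases before the start are shown. For Lats2, whose product phosphorylates the coactivators, 30 bases around a start are shown. The stretches lie at chr3:57575911-57576160 (Wwtr1), chr9:8004597-8004846 (Yap1) and chr14:57746102-57746131 (Lats2), all on the minus strand, and are written 5′ to 3′.
Wwtr1: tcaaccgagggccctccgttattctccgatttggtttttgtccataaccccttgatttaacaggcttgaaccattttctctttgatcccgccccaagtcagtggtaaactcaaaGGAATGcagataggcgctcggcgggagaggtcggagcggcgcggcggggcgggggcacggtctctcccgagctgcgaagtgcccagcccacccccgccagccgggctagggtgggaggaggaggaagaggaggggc
Yap1: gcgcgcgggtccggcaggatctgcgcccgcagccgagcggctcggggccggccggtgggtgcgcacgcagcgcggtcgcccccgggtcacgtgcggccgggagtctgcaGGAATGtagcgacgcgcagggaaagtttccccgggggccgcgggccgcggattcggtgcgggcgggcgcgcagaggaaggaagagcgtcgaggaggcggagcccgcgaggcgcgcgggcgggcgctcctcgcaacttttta
Lats2: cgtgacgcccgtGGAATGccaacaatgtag
The first capital stands at -136 from the start base in Wwtr1, at -141 in Yap1 and at 4 in Lats2. The Yap1 stretch was the more GC-rich, at 76.4% with 44 CpG dinucleotides, against 61.6% with 18 in Wwtr1.

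Among the upstream kinases, Stk4 was the abundant gene and Stk3 the scarce one, and both fructose libraries were above both control libraries for each. Stk3 (ENSMUSG00000022329, chr15:34875496-35178921, minus strand) had 26 and 18 counts in control and 49 and 99 counts in fructose, or 1.37, 0.999, 2.17 and 4.04 CPM. Its log2 fold change was 1.39 ± 0.37 (SE, 2 libraries per group), the highest of the 10 genes. Fructose 2 alone stood well above the other libraries, and without it the log2 fold change was 0.87 and Stk3 was no longer called. Stk4 (ENSMUSG00000018209, chr2:164070322-164155524, plus strand) was at 17.6 and 19.9 CPM in control and at 20.7 and 22.5 CPM in fructose. The gap between the groups was narrower than that between the 2 control libraries, and the log2 fold change was 0.21 ± 0.12 (SE). The 5′ end of Stk4 overlaps the opposite-strand gene Tomm34, and the counting of strand was not given in the sources used here.

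The LATS kinases, the direct upstream kinases of YAP and TAZ, were higher in both fructose libraries than in both control libraries. Lats1 (ENSMUSG00000040021, chr10:7681214-7716460, plus strand) was at 18.3 and 16.03 CPM in control and at 22.6 and 26.9 CPM in fructose, a log2 fold change of 0.53 ± 0.13 (SE). Lats2, with GGAATG just after a start (ENSMUSG00000021959, chr14:57689662-57758388, minus strand) was at 17.6 and 17.1 CPM in control and at 24.2 and 26.2 CPM in fructose, a log2 fold change of 0.54 ± 0.11 (SE). The control libraries of Lats2 lay close together, while those of Lats1 were spread more widely. Without fructose 2 the log2 fold changes were 0.40 for Lats1 and 0.49 for Lats2 and neither gene was called. With the trends of all genes with transcript length and GC content removed from each library, Lats2 was at 0.46 and still called, and Lats1 at -0.00011 and not called. Of the stretches of 50 bases in the longest Lats2 transcript, 56.5% also occur in Gm49361, a gene model that overlaps it on the same strand and had 0 counts in all 4 libraries, so the Lats2 counts depend on how shared reads were assigned.

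The coactivator genes were the most abundant of the 10 per transcript length, and 1 of them, Wwtr1, was called higher in fructose. Yap1 (ENSMUSG00000053110, chr9:7931999-8004596, minus strand) was at 59.3 and 52.2 CPM in control and at 62.6 and 58.2 CPM in fructose. The groups overlapped, and the log2 fold change was 0.11 ± 0.09 (SE). Wwtr1, with GGAATG before its start (ENSMUSG00000027803, chr3:57455649-57575910, minus strand) was at 33.6 and 33.7 CPM in control and at 44.5 and 43.7 CPM in fructose, a log2 fold change of 0.39 ± 0.09 (SE). The 2 libraries of each group were nearly equal for Wwtr1, and leaving out any 1 library left its log2 fold change between 0.38 and 0.41. With the same trends removed it was 0.09 and not called.

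The TEAD genes, whose products place YAP and TAZ on DNA, gave 1 call, that of Tead1. Tead1 (ENSMUSG00000055320, chr7:112679318-112906807, plus strand) was at 17.3 and 23.1 CPM in control and at 36.9 and 44.1 CPM in fructose. The lower fructose library was well above the higher control library, and the log2 fold change was 1.01 ± 0.14 (SE), or 2.01-fold. Leaving out any 1 library left the log2 fold change of Tead1 between 0.81 and 1.23. Tead2 (ENSMUSG00000030796, chr7:45215753-45233644, plus strand) was at 23.6 and 21.3 CPM in control and 19.6 and 18.4 CPM in fructose, a log2 fold change of -0.24 ± 0.12 (SE). It was the 1 gene of the 10 with both fructose libraries below both control libraries, and it was not called. The 3′ end of Tead2 overlaps the opposite-strand gene Cd37, which had 54, 27, 47 and 63 counts in the same library order.

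The other TEAD genes were below Tead1 and Tead2 in CPM in every library. Tead3 (ENSMUSG00000002249, chr17:28331671-28350817, minus strand) was at 8.34 and 9.54 CPM in control and at 7.70 and 9.96 CPM in fructose. The fructose libraries lay on either side of the control libraries, and the log2 fold change was -0.01 ± 0.18 (SE). Tead4 (ENSMUSG00000030353, chr6:128224288-128300823, minus strand), known for its part in the first lineage choice of the embryo and in muscle, had 29 and 24 counts in control and 59 and 49 counts in fructose, or 1.53, 1.33, 2.61 and 2.001 CPM. Both fructose libraries were above both control libraries, and the log2 fold change was 0.68 ± 0.32 (SE).

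**Figure D1:**
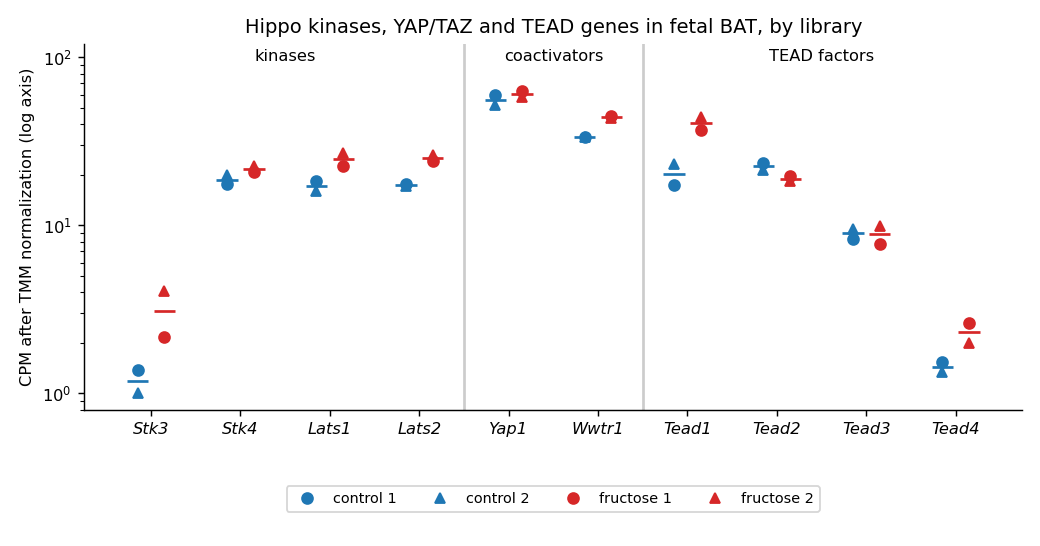
Level of each of the 10 genes in each library, in CPM after TMM normalization on a log axis, with control in blue, fructose in red, circles and triangles for libraries 1 and 2 and bars for the group means. Tead1 stands at 17.3 and 23.1 CPM in control and at 36.9 and 44.1 CPM in fructose, while the points of Yap1 and Tead3 overlap between the groups.

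Compared per transcript length, Yap1 came first in both groups. As a level in CPM per kilobase of the longest annotated transcript, Yap1 was at 10.6 ± 0.96 (SD, n = 2) in control and 11.4 ± 0.60 in fructose, and Wwtr1 was at 7.16 ± 0.023 and 9.39 ± 0.12. Tead2 came next, at 6.61 ± 0.48 in control and 5.59 ± 0.24 in fructose. In control the order went on with Stk4, Lats2, Tead3, Lats1, Tead1, Tead4 and Stk3, and the ranges of Stk4 and Lats2, of Tead3 and Lats1, and of Lats1 and Tead1 overlapped. In fructose it went on with Lats2, Stk4, Tead1, Lats1, Tead3, Stk3 and Tead4, and the ranges of Stk4 and Tead1, of Tead1 and Lats1, and of Stk3 and Tead4 overlapped. Divided instead by the union of annotated exons, the order in both groups was Wwtr1, Yap1, Tead2, Stk4, Lats2, Lats1, Tead1, Tead3, Tead4 and Stk3. The order thus depends on the length used, and Tead2 was the 1 gene of the leading 3 that kept its place in both.

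Within the TEAD family, Tead1 took a higher share and Tead2 a lower share in both fructose libraries than in both control libraries. Of the family's summed level per transcript length, Tead2 made up 59.9% and 53.2% in control and 45.9% and 40.5% in fructose. Tead1 made up 14.9% and 19.6% in control and 29.5% and 33.0% in fructose. The 2 shares therefore lay closer together in fructose, with Tead2 still the larger. With the length and GC trends of all genes removed from each library the gap was smaller, with Tead1 at 17.8% and 23.6% in control against 25.8% and 27.5% in fructose. Tead2 was then at 57.9% and 50.6% in control against 48.3% and 43.8% in fructose. As a share of the family's counts, where its long transcript gives it more reads, Tead1 was at 34.0% (95% exact Clopper-Pearson interval 31.0 to 37.1) and 41.8% (38.7 to 44.9) in control, and at 55.3% (52.7 to 57.8) and 59.2% (56.9 to 61.5) in fructose. These intervals cover counting error only, and those of the 2 control libraries do not overlap each other.

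In the other families the shares of counts overlapped between the groups for the LATS genes and did not for the other 2 pairs. Wwtr1 took 36.1% and 39.3% of the counts of Yap1 and Wwtr1 in control and 41.5% and 42.9% in fructose, with the intervals of control 2 (36.8 to 41.7) and fructose 1 (39.6 to 43.5) overlapping. Lats2 took 49.0% and 51.6% of the LATS counts in control and 51.8% and 49.3% in fructose, so the groups overlapped. Of the summed level per transcript length with the trends removed, Lats2 made up 54.3% and 54.9% in control and 62.9% and 61.8% in fructose. On that measure the groups did not overlap. Stk3 took 7.24% and 4.79% of the counts of Stk3 and Stk4 in control and 9.496% and 15.2% in fructose, with the intervals of control 1 (4.79 to 10.4) and fructose 1 (7.11 to 12.4) overlapping.

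**Figure D2:**
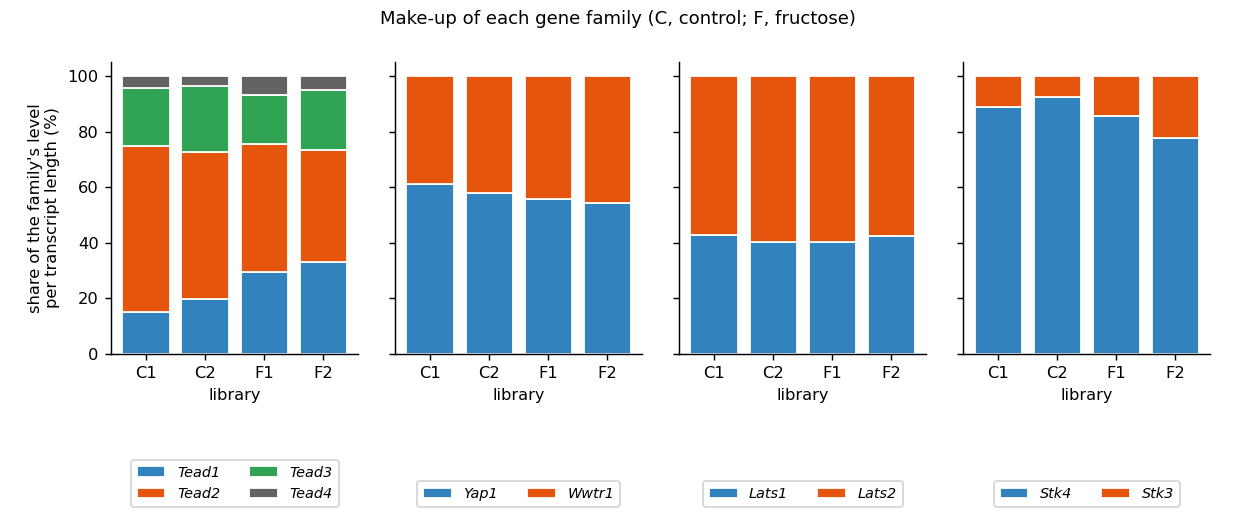
Share of each gene in the summed level per transcript length of its family (percent), 1 bar per library, for the TEAD genes, Yap1 and Wwtr1, Lats1 and Lats2, and Stk4 and Stk3. The Tead1 share goes from 14.9% and 19.6% in control to 29.5% and 33.0% in fructose, while the LATS bars differ little; the length and GC trends are not removed.

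In edgeR's fit across all genes, 5 of the 10 genes (Stk3, Lats1, Lats2, Wwtr1 and Tead1) were called higher in fructose at an adjusted p-value under 0.05, beside 15.5% of all genes tested. None was called lower, beside 10.7% of all genes. DESeq2 also called 0 of them lower, beside 1053 of the 12888 genes. At an unadjusted p-value under 0.05 by edgeR's test 0 were lower, beside 17.8% of all genes. Both fructose libraries were above both control libraries for 7 of the 10 genes, beside 33.4% of all genes, and below them for 1, beside 31.6%. The median log2 fold change was 0.46 over the 10 genes and 0.0025 over all genes. Since the genes were chosen with this comparison known, nothing is read from these counts.

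The fold changes of all genes depended on transcript length and GC content. Across 12884 genes, which are not independent replicates, the log2 fold change had a Spearman correlation of 0.501 with the length of the longest transcript and of -0.501 with its GC content. Between the 2 control libraries the same correlations were 0.0172 and 0.134, and between the 2 fructose libraries 0.171 and -0.208. The 10 genes have a median transcript length of 4944 bases and a GC content of 46.7%, against 3433 bases and 50.01% over all genes tested. Tead1 has the longest transcript of the 10, at 9964 bases, and Stk3 the lowest GC content, at 38.4%.

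**Figure D3:**
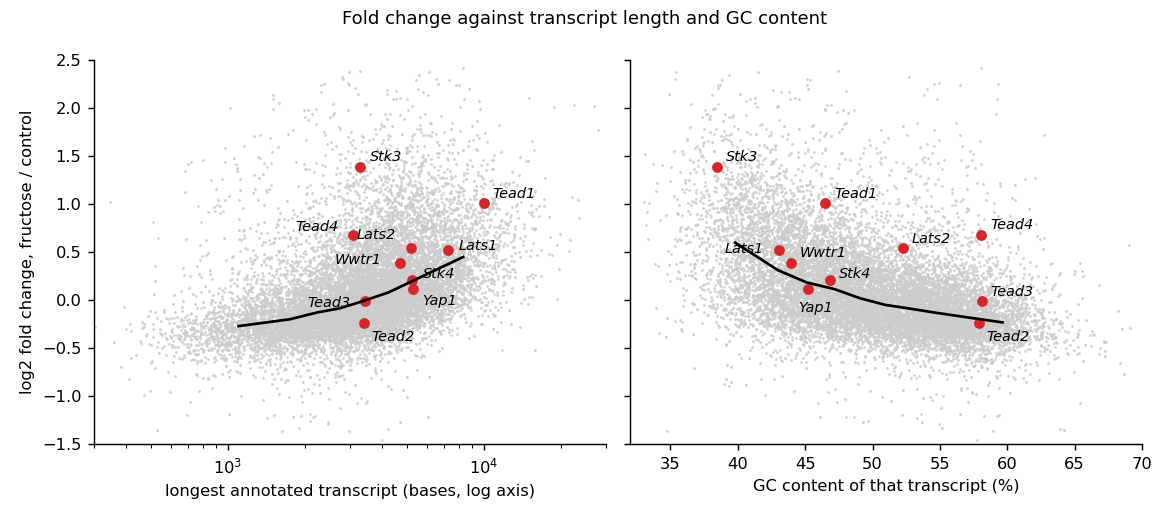
Log2 fold change of fructose over control against the length of the longest annotated transcript (left, bases, log axis) and its GC content (right, percent) for 12884 genes in grey, with the 10 genes in red and the median of each decile of all genes as a black line. 48 genes outside the axes are not drawn; Lats1 and Wwtr1 lie near the line in the right panel, and Tead1 and Stk3 lie above it in both.

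When both trends were removed from each library, 2 of the 10 genes, Tead1 and Lats2, were called higher, beside 4.14% of all genes tested, and 0 were called lower, beside 4.29%. At an unadjusted p-value under 0.05 the counts were 4 and 0, beside 11.9% and 12.1% of all genes. The log2 fold change of Tead1 went from 1.01 to 0.52 ± 0.14 (SE), and that of Lats2 from 0.54 to 0.46 ± 0.11. For Lats1 it went from 0.53 to -0.00011 ± 0.12, so its difference between the groups was no more than that of genes of like length and GC content. Wwtr1 went from 0.39 to 0.09 ± 0.09, and Stk3 from 1.39 to 0.91 ± 0.35. Yap1 moved from 0.11 to -0.18 ± 0.09 and Tead4 from 0.68 to 0.87 ± 0.31, neither called. The median over the 10 genes was 0.12. The cause of these trends was not tested.

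**Figure D4:**
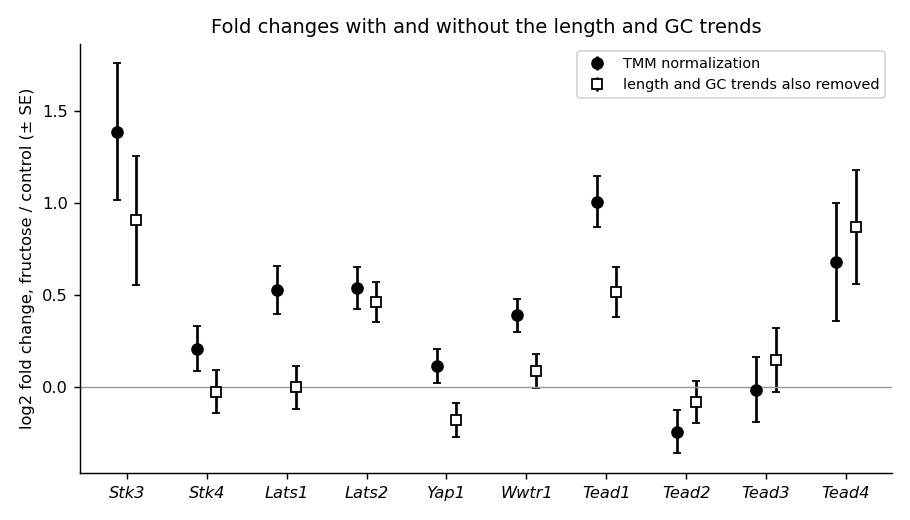
Log2 fold change of fructose over control with its standard error for each of the 10 genes, after TMM normalization (filled circles) and with the length and GC trends also removed (open squares). Lats1 drops from 0.53 to zero and Tead1 from 1.01 to 0.52, while Lats2 goes from 0.54 to 0.46.

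The rest of the pathway was followed in 59 further genes listed by role, of which 56 were tested. By edgeR's test, 14 rose and 2 fell in fructose, and 40 did not pass, where 15.5% of all genes tested rose and 10.7% fell. Their median log2 fold change was 0.14. With the trends removed, 5 rose (Mob1a, Map4k5, Strn3, Slmap and Tjp1) and 2 fell (Ppp2ca and Btrc), beside 4.14% and 4.29% of all genes, and the median was 0.056. With them removed, the log2 fold change turned from 0.70 to -0.17 for Taok1, from 0.46 to -0.08 for Fat4 and from 0.44 to -0.09 for Mob4, all among the 14. Their transcripts also have a median of 4541 bases.

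Among the adaptors of the kinases, 2 of 3 rose, beside 15.5% of all genes tested. Mob1a, whose product binds and activates the LATS kinases, was at 29.1 and 24.4 CPM in control and 43.8 and 44.7 CPM in fructose, a log2 fold change of 0.72 ± 0.11 (SE) with an adjusted p-value of 0.00096. Its paralog Mob1b was at 7.60 and 5.21 CPM in control and 13.3 and 12.1 CPM in fructose, a log2 fold change of 0.99 ± 0.19 with an adjusted p-value of 0.0034. With the trends removed these were 0.43, still called, and 0.12, not called. Sav1, the scaffold of MST1 and MST2, was at 39.1 and 40.7 CPM in control and 42.0 and 44.0 CPM in fructose, a log2 fold change of 0.11 ± 0.09 (adjusted p = 0.40), and of -0.30 with the trends removed.

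Of the 12 membrane and upstream regulators, 2 rose, beside 15.5% of all genes, the atypical cadherin gene Fat4 and the RASSF family gene Rassf4, and neither was called with the trends removed or without fructose 2. Nf2, which encodes the membrane-linked activator merlin, was at 117 and 124 CPM in control and 133 and 130 CPM in fructose (log2 fold change 0.13 ± 0.08, adjusted p = 0.26). Of 12 kinases that act beside or upstream of the core cascade, 3 rose, beside the same 15.5%, namely Taok1, Map4k3 and Map4k5. Map4k5 was at 9.56 and 6.93 CPM in control and 15.3 and 15.2 CPM in fructose, a log2 fold change of 0.88 ± 0.17 (adjusted p = 0.0035), and 0.67 with the trends removed. The calls of Taok1 and Map4k3 were lost without fructose 2, and that of Rassf4 also without control 2 or fructose 1.

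The STRIPAK complex joins a phosphatase to the MST kinases and switches them off. Of its 15 tested genes 4 rose, namely Strn, Strn3, Slmap and Mob4, beside 15.5% of all genes tested. The call of Mob4 was lost without control 2, fructose 1 or fructose 2. Strn3, a striatin that scaffolds the complex, was at 3.59 and 2.94 CPM in control and 10.3 and 10.6 CPM in fructose, a log2 fold change of 1.67 ± 0.19 with an adjusted p-value of 0.00027, the highest fold of the calls in the list. Slmap, whose product brings the complex to the MST kinases, was at 15.4 and 12.9 CPM in control and 30.2 and 30.6 CPM in fructose, a log2 fold change of 1.10 ± 0.12 with an adjusted p-value of 0.00024. For both genes the fructose values were closer together than the control values. With the trends removed both genes were still called, at 1.05 and 0.83. Ppp2r1a, the scaffold subunit of the phosphatase and the most abundant gene of the list, was at 361 and 361 CPM in control and 322 and 300.5 CPM in fructose (log2 fold change -0.21 ± 0.08, adjusted p = 0.075).

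Genes whose products bind or turn over the coactivators gave 3 rises among 9, Amotl1 and Tjp1 among them, beside 15.5% of all genes tested. Tjp1, which encodes the junction protein ZO-1, was at 46.7 and 44.8 CPM in control and 73.3 and 82.5 CPM in fructose, a log2 fold change of 0.77 ± 0.09 with an adjusted p-value of 0.00034, and 0.42 with the trends removed. Csnk1d, a kinase that primes YAP for destruction, and Wbp2, a partner of YAP and TAZ, were not called, with log2 fold changes of -0.11 ± 0.09 and -0.15 ± 0.08. Of the LIM proteins that inhibit LATS, Wtip fell, from 24.4 and 23.1 CPM to 17.3 and 16.8 CPM, a log2 fold change of -0.48 ± 0.12 (adjusted p = 0.011). It was -0.45 and not called without fructose 2, and -0.13 with the trends removed.

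The VGLL proteins bind TEAD factors in place of YAP and TAZ. Vgll4, a repressor, was at 38.9 and 40.7 CPM in control and 39.2 and 46.5 CPM in fructose (log2 fold change 0.11 ± 0.10, adjusted p = 0.47). Vgll2, known from muscle, had 2 and 3 counts in control and 6 and 8 counts in fructose and did not pass the filter. Vgll3 had 6 and 2 counts in control and 13 and 22 counts in fructose, a log2 fold change of 1.75 ± 0.63 (adjusted p = 0.061). It was called without control 1 (2.68) and with the replicate number as a block (1.74, edgeR adjusted p = 0.0499). Vgll1 had 0 counts in all 4 libraries.

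**Figure D5:**
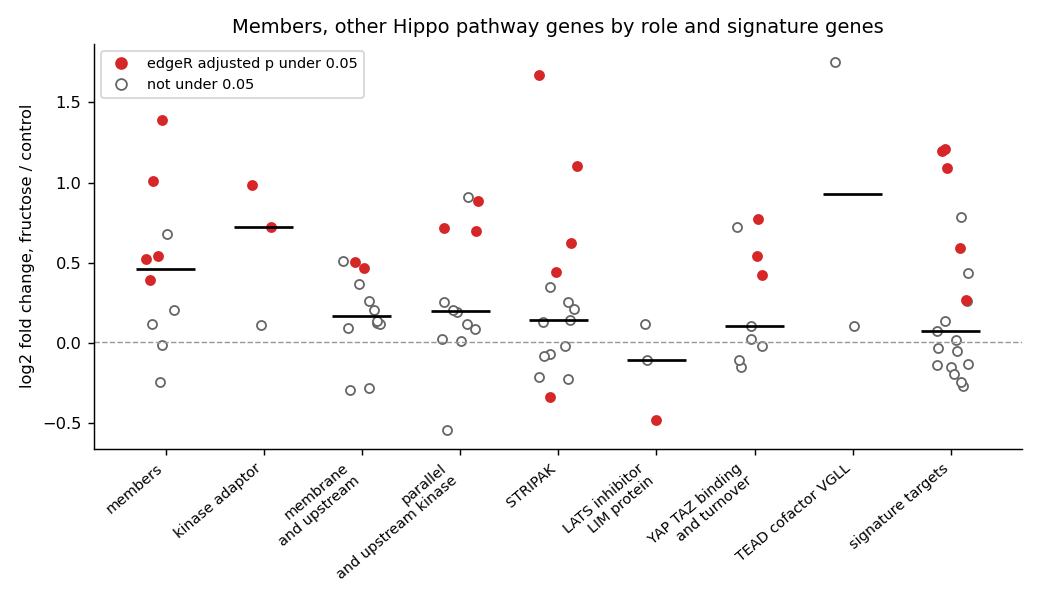
Log2 fold change of fructose over control for the 10 genes, the 56 tested genes of the rest of the pathway by role and the 19 tested signature genes, with red points for an edgeR adjusted p-value under 0.05, open points for the others, black bars for medians and a dashed line for the median of all genes. Red points lie mostly above the line, with Strn3 the highest of them and Wtip below it.

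Transcripts that respond to YAP and TAZ were followed in a signature of 21 target genes known from other cell types, without Lats2, which is also a target. Of 19 tested genes, 5 rose (Tgfb2, Rbms3, Crim1, Dock5 and Ptpn14) by edgeR's test, beside 15.5% of all genes tested. None fell, beside 10.7%. At an unadjusted p-value under 0.05 by edgeR's test 1 gene was lower, beside 17.8% of all genes. DESeq2 called 0 lower, beside 1053 of the 12888 genes. The median log2 fold change was 0.076, and the 14 others did not pass. The calls of Tgfb2, Rbms3 and Ptpn14 were each lost without fructose 2, where the log2 fold changes were 1.11, 1.04 and 0.18. That of Tgfb2 was also lost without control 1 (0.70) or fructose 1 (1.29), that of Rbms3 without control 2 (0.77) and that of Ptpn14 without control 1 (0.26). With the trends removed, 1 of the 5 was called, Crim1, beside 4.14% of all genes.

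Crim1, which encodes a membrane protein that binds BMPs, was at 6.49 and 4.88 CPM in control and 11.3 and 12.9 CPM in fructose, a log2 fold change of 1.09 ± 0.18 with an adjusted p-value of 0.0018, and 0.90 with the trends removed. Dock5, a Rac activator, was at 12.4 and 12.1 CPM in control and 19.1 and 17.9 CPM in fructose, a log2 fold change of 0.59 ± 0.13 (adjusted p = 0.0070), and 0.18 with the trends removed. Tgfb2, a TGF-beta ligand, was low, at 0.528 and 1.28 CPM in control and 1.95 and 2.21 CPM in fructose (log2 fold change 1.21 ± 0.41, adjusted p = 0.0495). DESeq2 gave adjusted p-values of 0.14 for Tgfb2 and 0.13 for Ptpn14, so neither was called by that tool. Rbms3, which encodes an RNA-binding protein, was at 2.32 and 1.11 CPM in control and 3.54 and 4.37 CPM in fructose (log2 fold change 1.20 ± 0.33, adjusted p = 0.021). Ptpn14, a phosphatase gene whose product binds YAP, was at 54.6 and 55.6 CPM in control and 62.2 and 70.7 CPM in fructose (log2 fold change 0.27 ± 0.09, adjusted p = 0.046), and at -0.077 with the trends removed.

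The targets used most often as readouts of YAP and TAZ were not called with all 4 libraries. Ccn1, which encodes the matrix protein CYR61, was at 50.7 and 29.1 CPM in control and 32.3 and 37.5 CPM in fructose (log2 fold change -0.19 ± 0.19, adjusted p = 0.48). Ccn2, which encodes CTGF, was at 4.59 and 1.89 CPM in control and 2.83 and 3.10 CPM in fructose (log2 fold change -0.13 ± 0.35, adjusted p = 0.82). For both genes control 1 was the highest library and control 2 the lowest, so the groups overlapped. Without control 2 the log2 fold change of Ccn1 was -0.54 and Ccn1 was called lower, while without control 1 it was 0.27. Ankrd1 had 2 and 0 counts in control and 4 and 0 counts in fructose and was not tested. The abundant targets Igfbp3, Amotl2 and Axl had log2 fold changes of -0.27 ± 0.09, -0.15 ± 0.10 and -0.14 ± 0.08, with adjusted p-values of 0.054, 0.26 and 0.21. Without control 2, Igfbp3 and Amotl2 were called lower, at -0.36 and -0.28, and Igfbp3 was also called without fructose 2 (-0.36) and with the replicate number as a block (-0.27, edgeR adjusted p = 0.040).

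Skeletal muscle genes also differed between the groups. Beside 15.5% of all genes tested, all 11 markers on a skeletal muscle list rose by edgeR's test, with a median log2 fold change of 1.42. Beside 4.14% of all genes, 10 of these 11 markers rose with the trends removed. Their summed level was 253 and 349 CPM in control and 814 and 611 CPM in fructose, led by Acta1, which encodes skeletal muscle actin, and none of them was at 0. The part of muscle RNA in the Hippo and TEAD values was not tested.

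Of 8 brown adipocyte markers, 3 rose and 1 fell. These and the next counts stand beside 15.5% of all genes tested that were higher and 10.7% that were lower. Their summed level, led by Ucp1, was 13764 and 16478 CPM in control and 15015 and 13505 CPM in fructose, and that of 7 fibroblast markers, none of them called, was 5043, 4335, 4903 and 4971 CPM, led by Col3a1. The groups overlapped for both sums. The 5 pan-adipocyte markers, led by Fabp4, summed to 12526 and 11661 CPM in control and 10796 and 10429 CPM in fructose, with 2 lower by edgeR's test. The 6 erythroid markers, led by Hbb-bs, summed to 19193 and 15270 CPM in control and 11751 and 12132 CPM in fructose, with 5 lower, none of them called with the trends removed. Endothelial markers (led by Cdh5, 2 of 7 lower) summed to 1472, 1428, 1282 and 1365 CPM. Smooth muscle markers (led by Pdgfrb, 1 of 7 higher) summed to 354, 364, 363 and 325 CPM, macrophage markers (led by Csf1r, 1 higher and 1 lower of 6) to 171, 130, 131 and 141 CPM, and Schwann cell markers (led by S100b, none called of 5) to 91.0, 100.1, 101 and 87.3 CPM. Cartilage and epidermis markers summed to at most 3.27 and 2.48 CPM in any library, with Krt14 at 0 in all 4. With the trends removed, 2 brown adipocyte markers were higher, and 1 pan-adipocyte, 1 fibroblast and 1 endothelial marker were lower. These lower markers were not among those called lower before the trends were removed. No other marker in this paragraph was then called, where 4.14% of all genes were higher and 4.29% lower. The part of these cells in the values of the 10 genes was not tested.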

How the data were processed

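BAT of fetuses at the end of gestation was sequenced in 4 libraries, 2 per group. The authors filtered reads with fastp, mapped them to mm10 with Bowtie2 (2.0.0.5) and TopHat2 (2.0.0), assembled transcripts with StringTie (2.2.0) and merged them with Cuffmerge, per the submitters' processing notes and the methods. They deposited raw counts per gene, not normalized and not pooled. The counting tool, its use of strand and of multi-mapping reads, and the annotation release are not given in the sources used here.

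Identifiers were matched to symbols, coordinates and transcripts with GENCODE M21 (GRCm38), and 43 of 22298 had no match. Counts were normalized by TMM (factors 0.986, 0.972, 1.01 and 1.04) and tested with edgeR 4.0.16 in R 4.3.3 (filterByExpr, quasi-likelihood test, two-sided, no covariate), with Benjamini-Hochberg adjustment over 12888 genes and a threshold of 0.05. The SE is the absolute log2 fold change divided by the square root of the test's F value. The common dispersion was 0.00726, a coefficient of variation of 8.52%. The p-values measure the spread between libraries that may be technical replicates. The counts of the 2 libraries of a group differed beyond sampling noise (chi-square per degree of freedom 11.4 in control and 7.47 in fructose). An exact permutation test on 2 against 2 libraries cannot go below p = 0.333 and was not used.

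Trends with the length and GC content of the longest transcript were removed from each library by lowess (span 0.3) as offsets. Other alternatives were DESeq2 1.42.0, its size factors, library size only, no filter, at least 10 counts in every library, a replicate block and each library left out in turn. Leaving out a library left 1 in its group, which was assumed to vary like the others. Promoters were from RefSeq, and shared stretches of 50 bases were counted over all annotated transcripts.

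The genes, lists and alternatives were chosen with earlier results of these data known. The genes named are the 10 members, of the other pathway and the signature genes up to 5 calls each way with the most extreme log2 fold changes and no overlap between groups, the 3 of each list with the highest level per length in control, the most abundant gene of each marker list, the Y-linked genes, and Sav1, Mob1a, Mob1b, Nf2, Vgll1, Vgll2, Vgll3, Vgll4, Ccn1, Ccn2 and Ankrd1. Other pathway genes are named only as calls. A few genes that these rules select are not reported here.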

Additional observations from a re-analysis of the deposited data

How the results depend on the processing

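With library size only, 857 genes were lower and 72.3% of calls were higher in fructose, against 59.2% with TMM and 57.2% with DESeq2's size factors. With the length trend removed 1147 genes were higher, with the GC trend 1111, and with both 533 higher and 553 lower. In these 3 fits the 10 genes gave 2 higher, and signature genes 1, 3 and 1 higher. Other pathway genes gave 6 (length), 10 (GC) and 5 (both) higher, with 4 lower for either single trend. With both trends removed and a replicate block, 811 genes were higher and 727 lower, of them 2, 7 and 1 in the 3 lists higher. Signature genes gave 3 higher with DESeq2 or its size factors, where 1366 and 1959 of all genes were higher. They gave 1 lower with those size factors or no filter, where 1467 and 1465 of all genes were lower. The replicate block and the length trend removed also gave 1 lower, beside 1441 and 959 of all genes. Besides Taok1, Fat4 and Mob4, values of genes called in either fit that turned sign included -0.00011 (both trends) and -0.0023 (with the block) for Lats1, -0.40 for Sav1 (GC trend), and -0.25 (length), -0.077 (both) and -0.079 (with the block) for Ptpn14. Leaving out each library in turn gave 1266 to 2254 genes higher and 527 to 1685 lower, 2 to 5 of the 10 genes higher, 8 to 19 other pathway genes higher and 0 to 3 lower, and 2 to 5 signature genes higher and 0 to 3 lower. The lowest counts of higher genes in these lists came without fructose 2. The replicate block alone gave 2117 higher and 1441 lower, with 17 other pathway genes higher. Same-numbered libraries did not deviate together over the genes tested (correlation -0.0519). That value cannot show how the libraries were collected, and whether the numbers mark a pairing was not given in the sources used here. Of 489 log2 fold changes of 35 named genes under an alternative, 32 in 13 genes had the other sign, 26 of them in fits with a trend removed. Counts were low for Stk3, Tead4, Vgll1, Vgll2 and Vgll3. The causes were not tested.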
